A study of Mus musculus with 16 samples.

Results

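MEF-2 is an immortalised culture of mouse embryonic fibroblasts from a C57BL/6J embryo of embryonic day 13.5, and 8 of the 16 libraries of the study belong to it. One library came from the MEF-2 parental culture, a mixture of many cells that was sequenced once, and 7 came from clonal lines 1 to 7, each expanded from 1 sorted cell of that culture. No library received a treatment or carried an edited allele, and all cells, the parental culture included, had been immortalised by passaging through crisis. The other 8 libraries, from the sibling embryo's culture MEF-1 and its 7 clonal lines, were used only for comparison. The paper reports a female embryo for MEF-2 and a male one for MEF-1. The libraries were chosen by their titles, and all CpGs with at least 10 reads in each of the 16 libraries entered, which gave 1203687 CpGs.

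Neighbouring CpGs at most 100 bp apart were joined into regions of 3 or more CpGs. This gave 120624 regions that held 1021772 CpGs. The methylation level of a region was the percentage of its calls (1 call is 1 read over 1 CpG) that were methylated. A region was counted as moved in a line where its level lay at least 20 points from the parental level and the adjusted p of Fisher's exact test, two-sided, was under 0.05. For that test a region counted only as its mean coverage, because 1 read can cover several CpGs. The test compares the reads of 2 libraries, so its p-values cover counting error only, and reads duplicated by PCR would make them too small. Each of the 7 tests used the same parental library, so an error in that library shifts all 7 lines the same way. The 7 lines are the replicates below, and the parental library is a single value. The lines were not equally far from each other. Over the 120624 regions, the deviations of the lines from their 7-line mean correlated at −0.106 to −0.0609 between pairs of lines 1, 5 and 6 and at −0.126 to 0.0443 between pairs of lines 2, 3, 4 and 7. The 12 pairs across these sets had −0.249 to −0.210. Subtracting a shared mean lowers every such value, and the sets were seen in the data and are in no label. The SDs and sign-flip tests over 7 lines take the lines as independent, and for lines that resemble each other their p-values would be too small.

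The MEF-2 parental library held 90633091 calls and the lines 63867423 to 84894056. The median of the mean reads per region was 42 in the parental library and 29 to 39.4 in the lines, lowest in line 3. Mean region levels were 52.4% in the parental library and 51.1% to 52.9% in the lines, again lowest in line 3. Line 3 also stood apart in its low coverage of chromosomes 2 and 14, described with the chromosomes below. Promoters of fibroblast markers were measured for 5 of 15 listed genes. Their median level was 1.23% to 2.53% over the 8 libraries, 4 of the 6 promoters were under 10% in all 8, and 1 was at 60% or more in all 8. Promoters of blood markers had medians of 69.1% to 81.6% and those of endothelial markers 56.6% to 76.7%. Epithelial marker promoters had medians of 11.4% to 22.2% and neural ones 6.90% to 19.2%, so promoter levels alone do not set the fibroblast label apart from these types.

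DNA methylation in mammals sits mainly on the cytosine of CpG dinucleotides. When DNA is copied, UHRF1 brings DNMT1 to the newly made strand, where it restores the methyl group, while DNMT3A and DNMT3B add methyl groups at unmethylated sites and TET enzymes start their removal. A clone begins with the pattern of its founder cell, whereas a culture gives an average over the patterns of many cells. Promoters rich in CpGs are usually unmethylated, and bodies of genes and intergenic DNA are mostly methylated.

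Shown first are 5 regions for the kinds of move described below, because their reference sequences let each CpG be set beside its level. Per3, which encodes a protein of the circadian clock, has a region over a coding exon that fell in line 4 alone. That region is named by the exon it overlaps and can reach into the flanking introns. Dusp1, a phosphatase that switches off MAP kinases, is the nearest gene to an intergenic region that rose in line 2 alone. Stxbp5 encodes tomosyn, a binding partner of SNARE proteins, and has an intronic region that rose in 4 lines. Runx1t1, a transcriptional co-repressor, and Il6st, the signalling subunit gp130 of the receptors of the interleukin-6 family, have intronic regions that fell in 3 lines each. The sequences are from the + strand of GRCm38 (mm10), 5′ to 3′, with the measured CpGs in capitals.

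Per3, coding exon, chr4:151043530-151043734: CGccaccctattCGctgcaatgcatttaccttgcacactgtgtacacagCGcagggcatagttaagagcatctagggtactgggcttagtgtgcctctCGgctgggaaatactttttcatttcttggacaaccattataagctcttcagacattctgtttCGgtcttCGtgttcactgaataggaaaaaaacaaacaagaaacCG
Dusp1, 4989 bp from its start, chr17:26503342-26503625: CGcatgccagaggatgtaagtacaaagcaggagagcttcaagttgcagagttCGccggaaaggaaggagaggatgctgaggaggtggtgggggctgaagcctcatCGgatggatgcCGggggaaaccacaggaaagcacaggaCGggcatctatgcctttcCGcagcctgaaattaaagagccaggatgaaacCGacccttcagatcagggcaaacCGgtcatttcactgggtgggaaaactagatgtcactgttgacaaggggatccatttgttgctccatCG
Stxbp5, intron, chr10:9899528-9899641: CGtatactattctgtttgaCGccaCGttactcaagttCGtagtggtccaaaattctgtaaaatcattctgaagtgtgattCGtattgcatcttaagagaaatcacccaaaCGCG
Runx1t1, intron, chr4:13745472-13745763: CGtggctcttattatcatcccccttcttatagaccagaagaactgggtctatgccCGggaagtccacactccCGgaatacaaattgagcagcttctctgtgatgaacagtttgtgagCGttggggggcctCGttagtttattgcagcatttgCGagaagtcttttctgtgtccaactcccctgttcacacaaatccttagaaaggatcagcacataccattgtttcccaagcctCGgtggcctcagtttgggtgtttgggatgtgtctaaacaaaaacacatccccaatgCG
Il6st, intron, chr13:112466203-112466270: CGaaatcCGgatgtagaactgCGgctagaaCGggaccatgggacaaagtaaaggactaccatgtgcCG

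Levels of single CpGs, numbered from the 5′ end of each sequence, show how even each move was. In the Per3 region, the 7 CpGs had parental levels of 27.4% to 71.0%. In line 4, all 7 fell to between 0% and 2.1%. Among the other lines, line 6 was at 100% at CpG 3 and at 9.7% at CpG 7, and line 3 was at 0% at CpG 4, although the region as a whole stayed near the parental level in both. Near Dusp1, line 2 rose unevenly over the 9 measured CpGs. Its CpGs 3, 6, 7 and 9 were at 95.7%, 95.5%, 94.3% and 88.3%, against parental levels of 22.2%, 45.0%, 10.0% and 21%. Its CpGs 1, 2, 4 and 5, at 33.3%, 37.5%, 26.9% and 42.1%, lay below the parental levels of 53.3%, 40.9%, 31.6% and 53.8%. CpG 3 was also high in lines 3, 4, 5 and 7, at 75%, 93.3%, 69.2% and 89.7%.

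The region of Stxbp5 was uneven along its length. The first 3 CpGs of lines 2, 3, 4 and 7 were at 97.0% to 100%, and CpG 6 of these lines was at 23.3% to 63.8%. The parental library was at 60.3%, 70.1%, 71.4%, 51.3%, 32.9%, 8.0% and 16.7% at CpGs 1 to 7. In Runx1t1, lines 2, 3, 4 and 7 had 0% to 9.2% at each CpG except CpG 6, where line 3 had 22.0%. Line 1 had 38.6% at CpG 6 and at most 8.6% elsewhere. Line 5 went the other way at CpG 7, at 96.3% against 35.3% in the parental library. All 5 CpGs of Il6st lay below the parental levels of 20.8% to 40.3% in every line, and the highest value was 26.8%, at CpG 1 of line 7.

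With each region counted as its mean coverage, called moves were few in every line, and losses outnumbered gains in all of them. Lines 1 to 7 had 208, 163, 143, 166, 272, 345 and 268 moved regions. Line 6 had the most and line 3 the fewest, and they also had the highest and the lowest median reads per region (39.4 and 29). Lines 1, 2, 4, 5 and 7 had 31.4, 32.3, 29.8, 35.6 and 36. The part of depth in the counts of single lines was not tested. Over the 7 lines, 0.185% ± 0.0613 (SD, n = 7) of regions moved per line, of which 0.0703% ± 0.0295 gained and 0.115% ± 0.0373 lost methylation. The share depended on the settings and was 3.64% where every call was counted as a read, 0.516% with at least 20 reads per CpG, 0.0980% with gaps of up to 200 bp, 0.0465% with libraries thinned to the lowest depth of a region and 0.0260% among regions of at least 5 CpGs. In all, 1340 regions moved in at least 1 line, which is 1.11% of those tested. The share that gained minus the share that lost was −0.0446 points ± 0.0277 (SD, n = 7) and lay below 0 in 7 of 7 lines (exact sign-flip test, two-sided, p = 0.0156, the smallest that 7 lines allow; adjusted over 3 tests, p = 0.0156). The difference did not pass the test among regions of at least 5 CpGs (−0.00447 points, exact sign-flip test, p = 0.50) or where every call was counted as a read (−0.384 points, p = 0.172). Counted once per line, regions from 60 to 90% in the parental library (36027) had 398 losses and 151 gains. Those from 40 to 60% (14995) had 294 and 203, and those from 10 to 40% (21034) had 222 and 183. Regions under 10% had 57 gains only, and those at 90% or more had 57 losses only. The part of the parental levels in the lean to losses was not tested. All 7 signs also rest on 1 parental library, so the test does not show a general fall. Among regions of at least 5 CpGs that moved in a single line, gains outnumbered losses in lines 1, 2, 4, 5 and 7, with 14 against 13, 8 against 2, 13 against 12, 21 against 16 and 22 against 14. The same 5 lines had more gains there where every call was counted as a read, for example 538 against 294 in line 4. Without regard to size or test, 9874 of the 120624 regions lay above the parental level in all 7 lines and 9353 below it. All 7 lines are set against 1 parental library, whose counting error alone puts regions on the same side in all 7. These 2 counts therefore do not show shifts shared by the lines. Line 3 had 20 gains against 123 losses, and it is also the line of lowest depth and lowest mean level. Whether these have a part in its count was not tested.

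**Figure D1:**
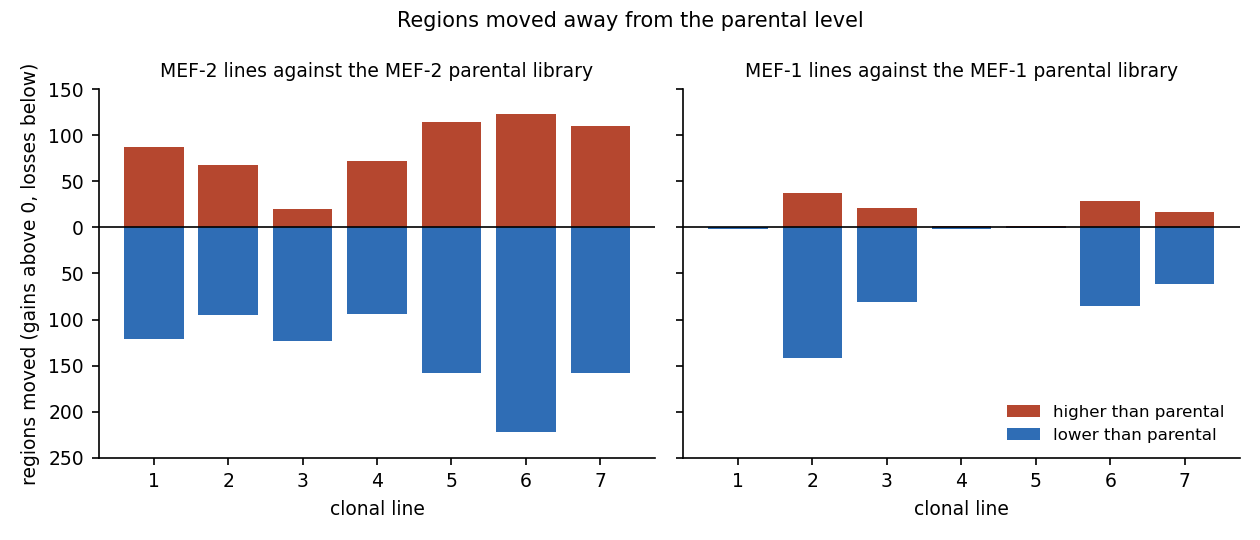
Bars give the number of regions that moved in each clonal line against the parental library of its family, gains above 0 and losses below. MEF-2 lines (left) had 143 to 345 moved regions with more losses than gains in each, and MEF-1 lines (right) had 2 to 179. Losses also outnumbered gains in each MEF-1 line except line 5, which had 1 of each.

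The moves were large where they were called. There were 1565 moves, a move being 1 region in 1 line, with a median size of 34.4 points and a range of 20.1 to 77.9. Of these, 128 were over 50 points, and 543 (34.7%) ended under 10% or at 90% or more. The sizes are set in part by the threshold of 20 points and by depth, since small differences do not pass the test at these depths.

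Most moved regions were called in a single line, which does not show that the other lines stayed at the parental level. Of the 1340 regions, 1163 moved in 1 line, 472 of them upwards and 691 downwards. A further 168 moved the same way in 2 to 6 lines, and 9 moved up in 1 line and down in at least 1 other. By number of lines, 139 regions moved in 2, 29 in 3, 8 in 4 and 1 in 5, and none moved in 6 or 7. Where every call was counted as a separate read, which takes the CpGs of a read as independent, 19566 regions (16.2%) moved in at least 1 line, and 14 moved the same way in all 7 (4 gains and 10 losses). Line 6 had 280 regions that moved in no other line and line 3 had 96.

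**Figure D2:**
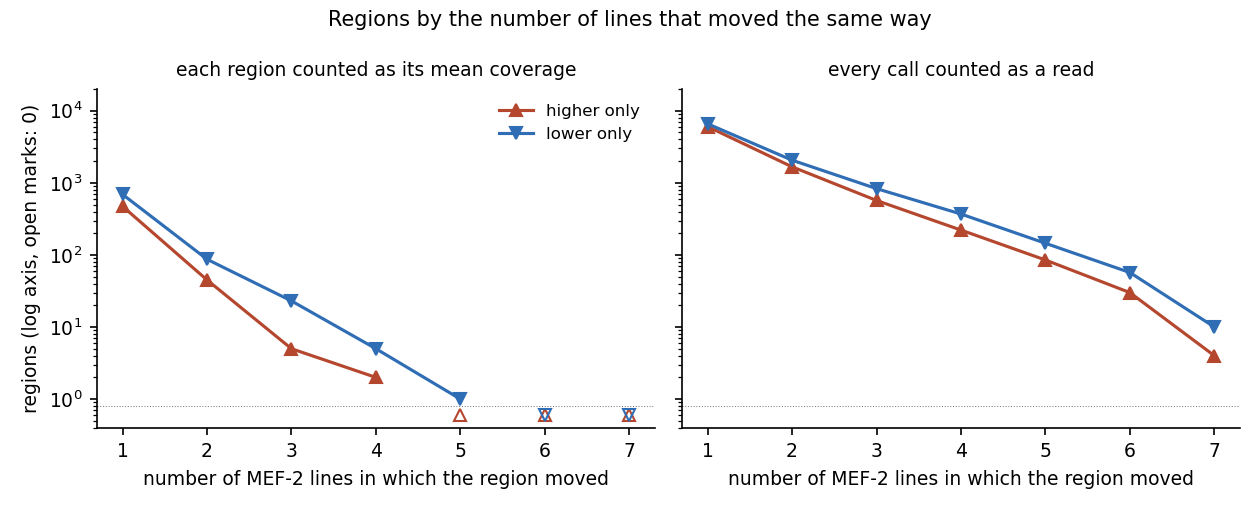
Points give, on a log axis, the regions that moved only up or only down by the number of MEF-2 lines in which they moved, and open marks stand for 0. With each region counted as its mean coverage (left) the counts end at 5 lines, and with every call counted as a read (right) 4 gains and 10 losses reach 7 lines.

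Regions of at least 5 CpGs that moved in 1 line, with the other 6 lines within 10 points of the parental level, give the clearest single-line moves. Of 203 regions of that size that moved in 1 line, 23 met this condition. The largest gain and the largest loss per line are given here, which makes 11 regions, since no gain of lines 3 and 7 and no loss of line 2 met it. Intervals are 95% Wilson intervals on the mean coverage, and they cover counting error only.

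Per3 had the lowest level reached. The parental library was at 44.0% (31.4% to 58.8%) in the region shown above, line 4 at 0.352% (0% to 8.57%), and the other 6 lines at 46.5% ± 4.21 (SD, n = 6; adjusted p = 0.000838, Fisher's exact test). Line 4 stood far below every other MEF-2 library, and no other line moved. The MEF-1 parental library had 40.9% there. Line 4 also had a gain in the promoter of the predicted gene Gm13212 (chr4:145585134-145585255), from 29.7% to 54.1%, with the others at 30.6% ± 4.70. With 336 mean reads in the parental library, several times the usual depth, that promoter may hold reads of near-identical copies, and its value is uncertain.

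Among gains of the other lines, the intron of Itpr1 (chr6:108249189-108249309), the receptor that releases calcium from the endoplasmic reticulum, rose in line 1 from 16.2% (10.4% to 25.7%) to 50.9% (39.2% to 62.2%). The other 6 lines had 14.7% ± 4.39 (adjusted p = 0.00706, Fisher's exact test). The region near Dusp1 rose in line 2 from 28.6% (18.4% to 41.5%) to 72.8% (56.6% to 82.3%), and the other lines had 26.5% ± 5.41 (adjusted p = 0.0195, Fisher's exact test). This was the largest of the gains. In line 5, an intron of Nsmaf (chr4:6452708-6452797), an adaptor of the tumour necrosis factor receptor, went from 15.3% to 53.9%, with the others at 14.1% ± 4.31. In line 6, an intergenic region 61651 bp from Fam184a (chr10:53812735-53812813) went from 23.0% to 57.8%, with the others at 25.1% ± 3.58.

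Losses came at high and at middling parental levels. Olfr221, an odorant receptor, fell in line 1 from 75.1% (66.6% to 81.5%) to 40.6% (30.0% to 51.0%) in an untranslated exon (chr14:52039556-52039672), with the other lines at 75.9% ± 2.85 (adjusted p = 0.00272, Fisher's exact test). An intron of Tgfbr3, the co-receptor betaglycan of the TGF-β family (chr5:107142888-107143051), fell in line 7 from 91.6% to 59.8%, with the others at 87.5% ± 3.67. An intron of C130074G19Rik (chr1:184881947-184882083) fell in line 3 from 94.6% to 69.5%, with the others at 92.0% ± 3.89. None of these regions lay in a promoter. An intergenic region 89666 bp from Mdm1, a protein of the centriole, fell in line 5 from 71.9% to 39.3% (chr10:118052111-118052221), with the others at 72.1% ± 4.68. In line 6 an intron of Tead1, a DNA-binding partner of YAP (chr7:112688718-112688985), fell from 59.2% to 26.6%, with the others at 59.9% ± 5.42. In MEF-1 the same intron of Tead1 was at 18.3% in the parental library and 5.71% to 25.4% in the lines, below the MEF-2 parental level.

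How firmly these calls hold differed. Olfr221 was called under each other setting that could be run. When all libraries were thinned to the lowest depth of the region, the calls of Dusp1, C130074G19Rik, Nsmaf, Fam184a, Tead1 and Tgfbr3 did not pass, although their differences kept their direction. Among regions of at least 5 CpGs alone, Dusp1, C130074G19Rik, Nsmaf, Fam184a and Tead1 did not pass (adjusted p = 0.0786 to 0.137, Fisher's exact test). Without regions over 100 reads, 3 of the 8 that remained did not pass (C130074G19Rik, Fam184a and Tead1), and Dusp1 did not pass with CpGs chosen on the MEF-2 libraries alone (adjusted p = 0.131, Fisher's exact test). With a difference of 30 points, C130074G19Rik and Gm13212 were too small. With gaps of up to 200 bp, 9 of the 11 regions, all but Olfr221 and Tgfbr3, were joined to neighbouring CpGs, and the differences of these joined regions did not pass, for example 11 points near Dusp1.

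Among regions that moved the same way in several lines, some had the lines in 2 separate ranges and others had them spread without a gap. For moves in 3 to 5 lines with the other lines within 10 points of the parental level, 1 region of at least 5 CpGs was found, an intergenic region 140432 bp from Zfp746 (chr6:48226955-48227096). It was at 60.9% in the parental library and at 16.9%, 62.9%, 29.9%, 64.5%, 40.7%, 53.7% and 52.6% in lines 1 to 7. Lines 1, 3 and 5 were the low ones, and its mean of 232 parental reads was high for these data. The regions in the next paragraphs were chosen after their values were seen, as those of at least 5 CpGs that moved the same way in 2 or more lines (10 gains and 13 losses) or of any size that moved in 4 or more.

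Gains shared by lines lay in introns, in intergenic DNA and in 1 promoter. Stxbp5 had 44.9% in the parental library and 62.1%, 86.9%, 82.0%, 84.5%, 46.6%, 38.5% and 85.3% in lines 1 to 7, and was called higher in 4. Lines 5 and 6 lay beside the parental level and the 4 called lines lay apart from them, with line 1 between. Pou2f1, which encodes the transcription factor OCT1, had an intronic region (chr1:165882608-165882648) at 63.5% in the parental library and at 75.6%, 97.8%, 95.6%, 100%, 75.6%, 96.8% and 100% in the lines. All 7 were above the parental level, 4 of them by the test. Nfia, a transcription factor of the nuclear factor I family, had an intronic region of 10 CpGs (chr4:97779571-97779912) at 18% in the parental library and at 13.2%, 80.2%, 49.5%, 45.1%, 49.3%, 22.3% and 66.3% in the lines. Lines 1 and 6 stayed near the parental level, and 3 of the other 5 were called. The next region of that intron (chr4:97780039-97780220) also had lines 2 and 7 highest and lines 1 and 6 lowest, with 34.3% in the parental library and 37.7%, 96.4%, 68.4%, 70.1%, 71.0%, 41.9% and 80.7% in the lines.

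Hpgd, the enzyme that inactivates prostaglandins, was the gene with a promoter among these gains. Its region at chr8:56293528-56293721 was at 59.6% in the parental library and at 62.9%, 92.1%, 65.2%, 65.8%, 94.8%, 68.9% and 88.8% in the lines. Lines 2, 5 and 7 were high there. The second region of that promoter (chr8:56293965-56294148) was at 68.0% and at 88.5%, 95.6%, 83.9%, 92.5%, 96.8%, 91.5% and 97.3%, above the parental level in every line and called in 2. The longest gain covered 119 CpGs over 1503 bp, 7935 bp from the start of Ankrd60 (chr2:173585549-173587051). It was at 18.4% in the parental library and at 22.5%, 46.7%, 41.8%, 53.6%, 21.2%, 23.9% and 36.7% in the lines, of which 2 were called.

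Losses shared by lines included the largest number of lines reached by any region. An intergenic region 6331 bp from Hspb7, a small heat shock protein of muscle (chr4:141427096-141427124), was at 63.5% in the parental library and at 3.57%, 46.7%, 6.67%, 3.85%, 18.4%, 7.5% and 8.89% in lines 1 to 7. All lines were below the parental level, 5 by the test, and line 2 stood apart from the other 6. It has 3 CpGs and 28.3 mean parental reads, and the interval of the parental level was 45.8% to 79.3%. Its call in line 1 did not pass with CpGs chosen on the MEF-2 libraries alone or with thinned libraries.

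Runx1t1 was at 34.5% in the parental library and at 9.09%, 4.04%, 4.74%, 3.68%, 52.8%, 33.3% and 3.59% in the lines. Lines 1, 2, 3, 4 and 7 were under 10%, 3 of them by the test, and lines 5 and 6 were not. Il6st was at 29.8% and at 11.2%, 5.93%, 2.21%, 0.510%, 3.57%, 2.84% and 7.08%, so that every line lay below the parental interval of 20.2% to 40.4%. An intronic region of Prkab2, a subunit of the AMP-activated kinase (chr3:97659198-97659226), was at 25.9% and at 24.5%, 2.32%, 1.67%, 0.905%, 29.1%, 41.6% and 1.45%. Lines 2, 3, 4 and 7 were near 0 and the other 3 were near or above the parental level. An intronic region of Gm35549 (chr9:122838425-122838508), a predicted gene, was at 88.8% and at 86.0%, 58.2%, 59.1%, 60%, 93.7%, 92.9% and 56.6%. The same 4 lines were the low ones there, with the other 3 beside the parental level. These 4 lines, also those called in Stxbp5, are a set of closer lines given at the start. Their calls may therefore not be 4 independent moves. An intron of Ntrk2, the BDNF receptor TrkB (chr13:58904561-58904624), was at 59.6% and at 29.5%, 29.6%, 16.5%, 43.8%, 17.6%, 42.3% and 22.0%. All 7 lines were below the parental level, 4 by the test, with no gap between those called and those not.

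An intergenic region 58221 bp from Gm11983 (chr11:6778869-6778939), a predicted gene, was at 77.6% in the parental library and at 14.8%, 39.7%, 40.4%, 59.1%, 91.9%, 47.2% and 54.4% in the lines. It was called lower in 4 lines and had the largest difference of these 30 regions, −62.8 points in line 1 (adjusted p = 5.38e-12, Fisher's exact test), while line 5 lay above the parental level. An intronic region of Lrch1 (chr14:74945987-74945996) was at 22.3% and at 12.2%, 16.6%, 0.625%, 3.54%, 2.08%, 1.97% and 0.373%, below the parental level in every line and called in 4. The other gains, near or in Ackr3, Bmp7, D3Ertd254e, Slc25a33 and Bcl11a, were called in 2 lines each, with largest differences of 26.4 to 46.2 points. In D3Ertd254e the lines fell in 2 ranges, with lines 2, 5, 6 and 7 at 26.2% to 34.8% and lines 1, 3 and 4 at 3.06% to 4.08%. The other losses, near or in Magi3, Lrrc39, St6galnac5, Zfp987, Lrrc2, Frs2, Clybl, 1810013L24Rik and Ubxn7, had largest differences of −47.8 to −25.8 points, and 3 lines were called in St6galnac5 and 2 in each of the others.

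Many of these shared moves did not pass under other settings, each taken in the line of its largest difference, and all kept their direction. With thinned libraries, 17 of the 30 did not pass, among them Stxbp5 (adjusted p = 0.0890, Fisher's exact test), Ankrd60 (0.0649), Pou2f1 (0.396), the first region of Hpgd (0.507), Runx1t1 (1) and Il6st (0.0966). With gaps of up to 200 bp, 16 of the 30 did not pass once joined to neighbouring CpGs, among them Stxbp5 (14.1 points), Prkab2 (−7.92 points), Gm35549 (−3.88 points), Ntrk2 (−22.6 points) and Nfia (35.0 points). Among regions of at least 5 CpGs alone, 3 of 23 did not pass (Il6st, Runx1t1 and the second region of Hpgd), and with a difference of 30 points 9 of the 30 were too small.

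Regions that went in opposite directions were few, and the 9 found had 3 or 4 CpGs each. In a region 60588 bp from Onecut1 (chr9:74801298-74801369), line 2 had 76.0% and line 6 had 3.17%, against 46.5% in the parental library and 37.3% to 58.5% in the other lines. In an exon of Tmc2 (chr2:130261176-130261281), line 1 had 89.0% and line 7 had 16.1%, against 54.8% in the parental library and 41.5% to 56.2% in the others. The intron of Hsf2bp, a protein of meiotic recombination (chr17:31982888-31983079), was called lower in lines 5 and 6, at 4.84% and 1.83% against 36.7%. Lines 2, 3 and 7 were at 68.2%, 68.8% and 68.2%, and were not called higher.

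No region moved in all 7 lines. A quasi-binomial logistic model with the 7 lines as replicates, whose dispersion was moderated with limma, asked the same of their mean. It called 0 of 120624 regions (0%) and 0 of 13027 promoters (0%). At an unadjusted p under 0.05 there were 1155 regions (0.958%; 472 higher and 683 lower in the lines). Among promoters there were 43 (0.330%; 15 higher and 28 lower). Where nothing differs, evenly spread p-values would put 1 in 20 features under 0.05, and both shares lay below that. The test was thus conservative, and its lack of calls does not show that the 7 lines share no shift. The model called 1 region and 1 promoter where every call was counted as a read, and none with the dispersion of each region alone. The single parental library limits this test, since its own spread was not measured and was taken to equal that of the lines.

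By size alone, 4 regions were at least 20 points above the parental level in all 7 lines and 15 were at least 20 points below. Of these, 1 had 5 or more CpGs, the promoter region of Irx2, a homeobox transcription factor (chr13:72631761-72631989, 19 CpGs). It was at 68.6% in the parental library and at 92.3%, 97.6%, 89.5%, 96.9%, 92.9%, 92.9% and 93.8% in the lines. The lines lay close together and all above the parental value, which rests on 18.6 mean reads, and no line was called. With every call counted as a read it was called in all 7 lines (largest adjusted p over the lines 5.58e-10, Fisher's exact test), the only region of 5 or more CpGs for which that held.

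Some of the regions of at least 5 CpGs with the lowest p-values of the model are given as a description. Il6st had the lowest among regions of that size (unadjusted p = 0.000188, adjusted p = 1, limma-moderated model). Over regions of any size, the smallest unadjusted p of that model was 6.5e-05. Fbln1, the matrix protein fibulin-1, had an intronic region (chr15:85244844-85245042) at 75.4% in the parental library and at 89.6% to 99.3% in the lines. The promoter region of Pdgfra, a receptor that marks fibroblasts (chr5:75151394-75151928, 26 CpGs), was at 18.1% in the parental library and at 2.44%, 2.24%, 3.31%, 2.29%, 6.07%, 4.01% and 2.82% in lines 1 to 7. From 18.1% a fall of 20 points was not possible, so the region could not be counted as moved downwards. In line 2, the line of the largest difference, Fisher's exact test gave an adjusted p of 0.319. In MEF-1 it was at 56.2% in the parental library and at 55.4% to 60.8% in the lines. An untranslated exon of Hoxb4 (chr11:96320806-96320990, 11 CpGs) was at 74.9% in the parental library and at 55.1%, 37.5%, 25%, 40.4%, 29.9%, 35.1% and 38.8% in the lines, all below it, with 32.9 mean parental reads and no line called.

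Regions of intermediate parental level moved most often. Regions under 10% moved in 0.0321% ± 0.0124 (SD, n = 7) of cases per line and those at 90% or more in 0.0350% ± 0.0210. Regions from 10 to 40%, from 40 to 60% and from 60 to 90% moved in 0.275% ± 0.0885, 0.473% ± 0.182 and 0.218% ± 0.0756 per line. The spread between lines followed the same order, with a median SD over the 7 lines of 1.45 points for regions under 10%, 8.51 points from 40 to 60% and 2.31 points at 90% or more. Levels near 0 or 100% can move by 20 points in 1 direction only, and their counting error is smaller.

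Moved regions ended in all states. Of 294 losses from 40 to 60%, 89 ended under 10% and 205 between 10 and 40%. Of 203 gains from there, 81 ended at 90% or more and 122 between 60 and 90%. Losses from 60 to 90% mostly stopped short of that, with 21 of 398 under 10% and 245 between 10 and 40%. The 57 gains from under 10% gave 34 regions between 10 and 40%, 18 between 40 and 60% and 5 above. Among them was an exon of Zfp503, a zinc finger repressor (chr14:21984929-21985965, 80 CpGs). It was at 9.48% in the parental library and at 4.29%, 24.5%, 22.0%, 4.56%, 32.4%, 59.0% and 3.15% in the lines, with line 6 called and lines 2, 3 and 5 between it and the rest.

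Depth and size moved with the calls. Among regions with 10 to 30 mean parental reads, 0.117% moved in at least 1 line, and the share was 0.415% from 30 to 50, 1.61% from 50 to 80 and 5.64% at 80 or more. The median was 73 reads for moved regions and 41.8 for the others. Moved regions had a median of 3 CpGs, against 5 over all regions. Of 50284 regions of 3 or 4 CpGs 2.22% moved, against 0.321% of 70340 larger ones, and 3 of 10001 regions with 20 or more CpGs moved (those near Ankrd60 and Zfp600 and in Zfp503). Each region was tested at its mean coverage, so one with many CpGs had no more counts than one with 3 at the same depth. Its level also averages over more CpGs. Low shares among large regions therefore do not show that they moved less. The parts of depth, region size and near-identical copies among the deepest regions in these shares were not tested apart. It was not detectable at these depths whether shallow regions moved as often.

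**Figure D3:**
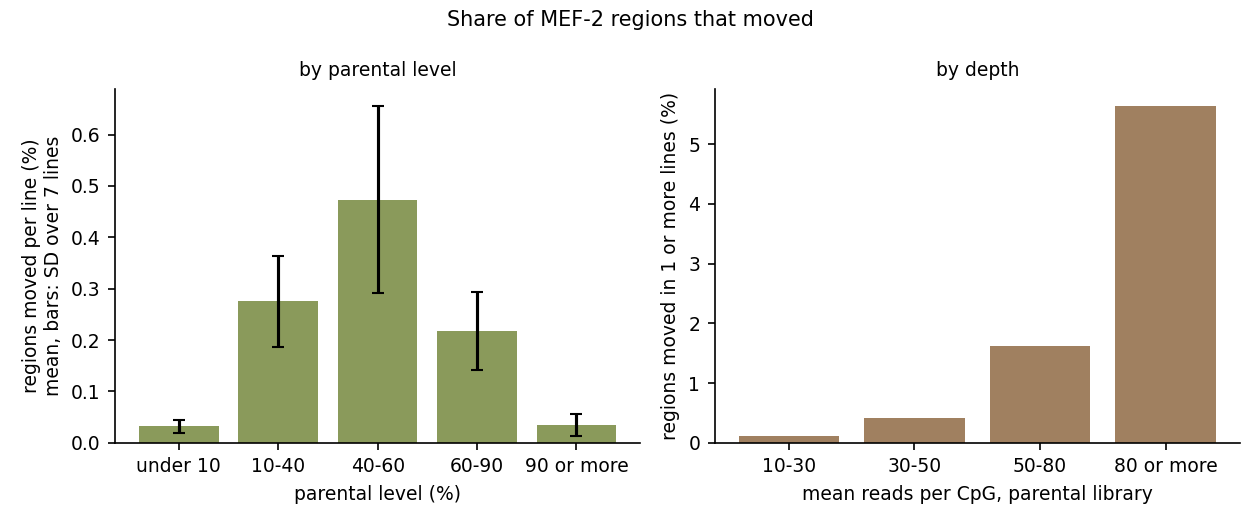
Bars give the share of MEF-2 regions that moved, on the left per line by parental level (mean, error bars SD over 7 lines) and on the right in at least 1 line by mean reads in the parental library. The share was highest from 40 to 60% (0.473%) and rose with depth from 0.117% to 5.64%.

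Promoter regions moved less often than intergenic ones at the same range of parental levels. Among regions between 10 and 90%, 72 of 7297 in promoters (0.987%), 59 of 8364 in exons (0.705%), 534 of 26140 in introns (2.04%) and 575 of 30255 in intergenic DNA (1.90%) moved in at least 1 line. Per line, promoter minus intergenic was −0.141 points ± 0.0637 (SD, n = 7), below 0 in 7 of 7 lines (exact sign-flip test, two-sided, p = 0.0156, the smallest possible; adjusted over 3 tests, p = 0.0156). The difference did not pass the test with thinned libraries (−0.0330 points, exact sign-flip test, p = 0.0781) or among regions of at least 5 CpGs (−0.00122 points, p = 0.906). Promoter regions had a median of 6 CpGs and 42.3 reads, and intergenic ones 5 CpGs and 44.7 reads. The part of size and depth in this difference was not tested beyond those settings. Moved regions that lay close together went the same way in 14 of 14 neighbouring pairs within 1000 bp and in 24 of 27 within 10000 bp.

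Whole promoters, taken as the 1000 bp before a transcript start, were seldom called as moved. Of 13027 promoters of 11435 genes, 11 moved in at least 1 line (0.0844%), with 1 to 5 per line. Many more, 768, lay at least 20 points from the parental level in at least 1 line without regard to the test. Each promoter was tested at its mean coverage, however many CpGs it held. The share called per line was 0.0208%, but 1.24% with every call counted as a read and 0.00333% without promoters over 100 reads. Of 6464 promoters under 10% in the parental library, 5124 (79.3%) stayed under 10% in all 7 lines. Of 1146 from 40 to 60%, 200 (17.5%) kept that state in all 7. The median range over the 7 lines was 3.06 points for the former and 17.2 points for the latter. Counting error is larger at middling levels than near 0, and the median over all promoters was 38.7 mean reads. The part of counting error in these shares was not tested. The rule for naming genes found none, because no promoter with at least 5 CpGs met the 10-point condition, so the promoters in the next paragraph were chosen after their values were seen.

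Most of these promoters were measured at few CpGs, against a median of 14 over all promoters. Pilrb1, Nfib, Tespa1, Zscan4c, Zscan4d and Zscan4f had 3 each, Lrrc39, Csf2rb and Gm14418 had 4 each, Ppm1h had 7 and Gbe1 had 8. The levels are those of these CpGs and not of the whole 1000 bp. Pilrb1, a paired immunoglobulin-like receptor, moved in the most lines. Its promoter was at 33.5% in the parental library and at 1.5%, 1.79%, 3.79%, 0%, 18.3%, 21.7% and 15.6% in lines 1 to 7, and lines 1 to 4 were called lower. Lrrc39, a gene of striated muscle, was at 63.4% and at 32.3%, 50.0%, 47.8%, 45.9%, 51.5%, 38.5% and 43.9%, all below the parental level and called in 2. Nfib, a sister gene of Nfia, was at 35.8% and at 32.8%, 12.8%, 1.43%, 5.71%, 16.8%, 28.3% and 26.1%, called in line 3. Ppm1h, a protein phosphatase, was at 46.6% and at 26.4%, 34.9%, 36.5%, 61.7%, 24.2%, 6.78% and 45.1%, called in line 6. Gbe1, the glycogen branching enzyme, was a promoter that gained, from 4.94% to 35.9% in line 6, with 4.51% to 30.1% in the other lines. Csf2rb, the common β subunit of cytokine receptors, was at 36.7% and had 5.88% in line 5, and Tespa1, a thymocyte protein, was at 46.4% and had 0% in line 6. The 4 others were Gm14418, Zscan4c, Zscan4d and Zscan4f, which belong to families of near-identical copies, and had 143 to 319 mean parental reads. Their values are uncertain for that reason.

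None of 23 gene lists, which covered cell types, gene families and processes, held a moved promoter, beside 0.0844% over all promoters. Regions in their genes or promoters moved at shares on both sides of the 1.11% over all regions. The moved regions named from the lists below had 3 or 4 CpGs each, except Pax6 (5), Olfr1033 (6) and Col14a1 (8). No region moved in Hox genes (0 of 202), imprinted genes (0 of 222), ribosomal protein genes (0 of 282), the DNA methylation machinery (0 of 82), keratins (0 of 70), or the fibroblast (0 of 79), epithelial (0 of 62), endothelial (0 of 74), muscle (0 of 49) and neural (0 of 38) lists. Of these, ribosomal protein regions had a median parental level of 6.89% and a median range over the 7 lines of 5.41 points, and imprinted regions 61.1% and 15.9 points, beside 58.7% and 13.7 points over all regions.

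Zinc finger genes named Zfp, one of the longest lists, had 17 moved regions of 1201 (1.42%), 5 up and 12 down. Zfp990 was at 42.8% in an intron and at 39.5%, 60.5%, 11.3%, 45.9%, 26.3%, 37.7% and 22.1% in the lines, called lower in 2. Zfp982 was at 34.7% in its promoter and at 19.8%, 12.4%, 6.10%, 20.4%, 17.6%, 9.88% and 5.38%, called lower in 2. Both lie in a cluster of similar zinc finger genes on chromosome 4, where copies can share reads. Solute carriers had 10 of 1660 (0.602%).

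Developmental transcription factors had 6 of 920 (0.652%), 5 up and 1 down, each in 1 line. An intron of Foxp1 rose in line 2 from 37.0% to 92.9%, with 38.7% to 60.2% in the other lines. An intron of Pax6, a regulator of eye and brain, rose in line 4 from 27.8% to 79.6%, with 34.7% to 61.0% in the others. Potassium channels had 5 of 446 (1.12%). Kcnh1 was at 47.8% and had 10.0% in line 7, and Kcnq3 was at 53.9% and had 16.2% in line 2, each called lower in 2 lines. Signalling ligands had 3 of 293 (1.02%), with Fgf12 from 33.3% to 84.6% in line 5 and Fgf4 from 65.1% to 16.5% in line 6. Fgf4 was also the 1 moved region of 109 in the pluripotency list.

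The remaining lists had 1 or 2 moved regions each. Piwil1, a germline protein that binds piRNAs, was at 70.7% and had 24.8% in line 2 and 90.3% in line 1, and Brdt, a bromodomain protein of the testis, was at 63.0% and had 19.8% in line 2 (2 of 94 germline regions, 2.13%). Among collagens (2 of 265, 0.755%), Col14a1 rose in line 5 from 41.3% to 92.1% and Col4a2 fell in line 3 from 69.1% to 17.4%. Olfr1033 fell in line 3 from 64.5% to 34.6%, the second of 2 olfactory receptor regions of 59 (3.39%). Cdk6, a kinase of the G1 phase, rose in line 2 from 35.5% to 72.2%, with 34.6% to 46.1% in the other lines (1 of 160 cell cycle regions). Single regions of Vav1 (1 of 41 blood regions) and Alb (1 of 77 endoderm regions) fell in line 7, from 34% to 4.89% and from 32.4% to 2.08%, and 1 region of Cdh6 (1 of 185 cadherin regions) rose in line 2 from 39.9% to 70.9%. All are introns except the promoter region of Olfr1033.

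Chromosome 4 of line 4 stood apart. Over regions with a parental level of 30 to 70%, the mean absolute difference from the parental level was 12.2 points there, against 8.73 to 9.33 points on chromosome 4 in the other lines. Of the 9221 regions of that chromosome, 55 moved in line 4 (0.596%; 24 gains and 31 losses), against 12 to 22 in the other lines, and they ran from 17854788 to 155452012. Of the 2462 regions of 30 to 70%, 2.40% were under 10% and 2.44% were at 90% or more in line 4, against 0.244% to 0.65% and 0.122% to 0.731% in the others. The regions of that chromosome that moved in line 4 include those of Per3, Gm13212 and Frrs1l (97.7% against 64.0%). The coverage of that chromosome in line 4, relative to the other MEF-2 lines, was 0.99. The difference between line 4 and the other 6 lines was not tested.

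Chromosomes 2 and 14 of line 3 also differed, with mean absolute differences of 10.4 points each and a relative coverage of 0.757 and 0.756. The other 109 pairs of a line and a chromosome had differences of 8.53 to 9.64 points, among them chromosome 10 of line 4, with a relative coverage of 1.15 and a difference of 8.88 points. Whether the lower coverage has a part in the differences of line 3 was not tested.

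**Figure D4:**
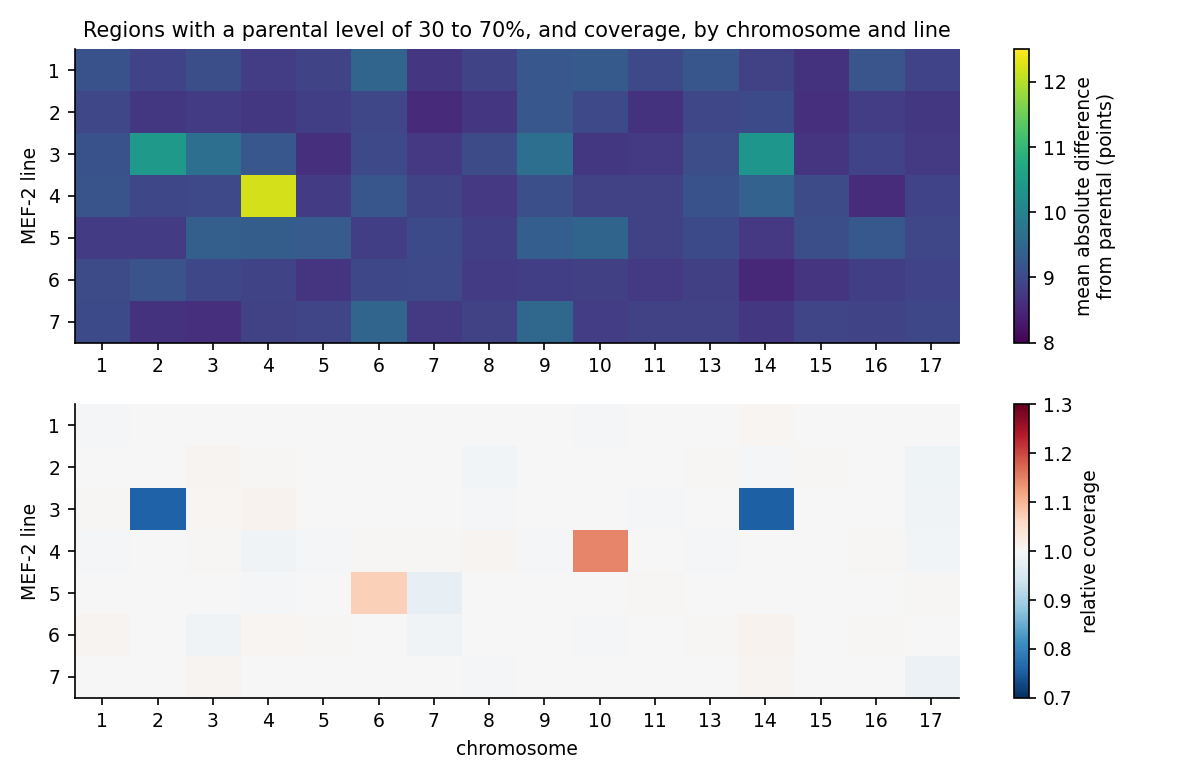
Colours give, for each MEF-2 line and chromosome, the mean absolute difference from the parental level in points over regions with a parental level of 30 to 70% (top) and the coverage of the chromosome relative to the other MEF-2 lines (bottom). Chromosome 4 of line 4 has the highest difference (12.2 points). For chromosome 4 the coverage shown is that of its first 20 Mb, 0.99 in line 4. Chromosomes 2 and 14 of line 3 have a coverage of 0.757 and 0.756.

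Compared with MEF-1 at the same regions, more regions moved per line in MEF-2. MEF-1 lines 1 to 7 had 2, 179, 102, 3, 2, 114 and 78 moved regions against the MEF-1 parental library, and 409 regions (0.339%) moved in at least 1 of them. The mean was 0.0568% ± 0.0573 (SD, n = 7) per line, so MEF-2 was higher by 0.128 points (exact permutation test of 7 against 7 lines, two-sided, p = 0.00233; adjusted over 3 tests, p = 0.00699). Each family is 1 culture from 1 embryo whose lines share 1 parental library, so this test compares the lines of these 2 cultures and takes them as independent. The 2 cultures also differ in sex, and no region of chromosome X entered. MEF-1 lines 1, 4 and 5, with 2 or 3 moved regions, have a relative coverage of chromosome 18 of 0.514 to 0.529, against 0.912 to 1.00 in the other 4. With these 3 lines left out, MEF-2 was higher by 0.0873 points (exact permutation test, p = 0.0242). The median mean reads were 38.9 in the MEF-1 parental library and 32 in its lines, against 42 and 33.3 in MEF-2, and 57.7% of regions had a parental level of 10 to 90% in MEF-1 against 59.7% in MEF-2. With libraries thinned within each family to the lowest depth of a region, MEF-2 was higher by 0.0341 points (exact permutation test, p = 0.000583), and without regions over 100 reads by 0.0781 points (p = 0.00758). Depth was not made equal between the families, and the part of the parental levels was not tested. Of the 1340 regions that moved in MEF-2, 69 also moved in MEF-1, which is 5.15% of those of MEF-2 and 16.9% of those of MEF-1. The lean to losses was not particular to MEF-2. In MEF-1 the share that gained minus the share that lost was −0.0317 points ± 0.0329 (SD, n = 7). Losses outnumbered gains in each MEF-1 line except line 5, which had 1 of each, and this lean was not tested in MEF-1.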

How the data were processed

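Target capture bisulfite sequencing (SureSelectXT Methyl-seq) was used for the 8 MEF-2 and 8 MEF-1 libraries. According to the study's methods and the submitters' processing notes, reads were trimmed with Trim Galore 0.6.0 and aligned to mm10 with Bismark, calls of both strands of a CpG were combined, and R 3.6.1 was used. The sources do not mention whether PCR duplicates were removed. The deposited values are counts of unmethylated and methylated reads per CpG that the authors did not normalise, and the series table equalled the library tables in all 16 libraries. Its 2 columns per sample derived from the counts and the authors' scores per CpG were not used. The table covers 16 chromosomes and leaves out chromosomes 12, 18, 19, X and Y.

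Regions, promoters (1000 bp before a start of a protein-coding gene, GENCODE M21) and calls were defined as in the report. A region was labelled promoter, exon, intron or intergenic by any overlap, in that order, so it can extend beyond the part named. Fisher's exact test took summed calls divided by the number of CpGs and rounded, with Benjamini-Hochberg adjustment over all features of a line. The quasi-binomial model used limma 3.58.1 (squeezeVar) in R 4.3.3, and the rest Python 3.11.15, NumPy 2.4.6, SciPy 1.17.1, pandas 2.3.3, numba 0.67.0 and pyranges 0.1.4. Lines were compared by exact sign-flip and permutation tests. The scripts were tested on simulated data. Median mean reads per region of 29 to 42 limit the precision, and reads are not independent molecules. Relative coverage of a chromosome was scaled to the median autosome of the library and to the median MEF-2 clonal line. Regions named by the rule had at least 5 CpGs, except those of the gene lists. Regions of the gene lists, regions called in 4 or more lines, regions moved both ways and the promoters named as moved could have fewer. The rule took, for each line, the largest gain and loss moved in that line alone with the other 6 within 10 points, then up to 4 gains and 4 losses moved in 3 to 5 lines, up to 6 each in all 7, up to 4 moved both ways in at least 2 lines each, and for each gene list the 2 members moved in most lines. Members, lists and tests were chosen with earlier results of these data known. The alternatives were another coverage minimum, CpG set, size of difference, unit of reads, depth, gap, region size, promoter window and dispersion, and leaving out lines or chromosomes. Sequences are from the GRCm38 reference. Some regions of the gene lists are counted but their values are not reported here.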

Additional observations from a re-analysis of the deposited data

Results flagged for a closer look

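Values of 1 line that stood far from the other 6 were looked for in 77 groups of 7 values by the ratio of the gap to the range, which chance exceeds in about 1 of 20 groups. The named regions had been chosen for such a gap, so their values add nothing to that choice. For lines as a whole, line 3 had a mean absolute difference of 10.4 points and a relative coverage of 0.757 on chromosome 2, and a relative coverage of 0.756 on chromosome 14. Line 4 had a mean absolute difference of 12.2 points on chromosome 4, and relative coverages of 1.15 on chromosome 10 and 0.994 on chromosome 9. Line 5 had a relative coverage of 1.07 on chromosome 6.

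For single regions, line 1 stood apart at Itpr1 (50.9%) and Olfr221 (40.6%), line 2 near Dusp1 (72.8%) and near Hspb7 (46.7%), and line 3 at C130074G19Rik (69.5%). Line 4 stood apart at Gm13212 (54.1%), at Per3 (0.352%) and in a region 111972 bp from 3100002H09Rik (83.4% against 49.4% in the parental library). Line 5 did so at Nsmaf (53.9%) and near Mdm1 (39.3%), line 6 near Fam184a (57.8%) and at Tead1 (26.6%), and line 7 at Tgfbr3 (59.8%).

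The share of regions moved per line was 0.128 points higher in MEF-2 than in MEF-1 by the permutation test of the difference given above. Outside the chromosomes compared, 262 of 18955 regions on chromosomes 12, 18, 19 and X (1.38%) moved in at least 1 MEF-2 line, with CpGs taken from the MEF-2 libraries alone. Those regions had 116 gains and 209 losses, and no control sample other than the parental library was set against them.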

How the results depend on the processing

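The share of regions moved per line (0.185%) was 0.516% with at least 20 reads, 3.64% with every call counted as a read, 0.0465% with thinned libraries, 0.0980% with gaps of up to 200 bp, 0.0260% with at least 5 CpGs, and 0.107% without regions over 100 reads. For promoters (0.0208%) it was 0.0915%, 1.24%, 0.00987% and, without those over 100 reads, 0.00333%. In the same order as for regions, those moved in exactly 1 line numbered 1746, 12600, 313, 548, 109 and 722, against 1163. Regions moved the same way in 2 to 6 lines (168) numbered 304, 6034, 36, 84 and 9 with the first 5 of these, and 93 with a difference of 30 points. With every call counted as a read, 14 regions moved in all 7 lines, and the model called 1 region and 1 promoter. With promoters reaching 500 bp after the start it also called 1 promoter. Gains minus losses was −0.384 points (exact sign-flip test, p = 0.172) with every call counted as a read and −0.00447 points (p = 0.50) with at least 5 CpGs. Promoter minus intergenic was −0.0330 points (exact sign-flip test, p = 0.0781) with thinned libraries and −0.00122 points (p = 0.906) with at least 5 CpGs. Fewer reads or fewer regions entered under several of these settings, and the cause of each change was otherwise not tested.

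No direction of a value over the 7 lines or of a named region turned, although single lines had more gains than losses among single-line regions of at least 5 CpGs. Leaving out each line in turn gave 0.169% to 0.196% moved regions per line, 932 to 1097 in exactly 1 line, 115 to 140 in 2 or more, −0.0491 to −0.0379 points for gains minus losses and −0.158 to −0.123 points for promoter minus intergenic. It gave 0.112 to 0.140 points for MEF-2 minus MEF-1, and that difference passed its test under every setting run. It was 0.376 points with at least 20 reads, 1.83 with every call counted as a read, 0.0341 with thinned libraries, 0.0598 with gaps of up to 200 bp, 0.0215 with at least 5 CpGs and 0.0781 without regions over 100 reads. The settings without regions over 100 reads, without chromosomes 2, 4, 10 and 14 and without 3 MEF-1 lines were chosen after seeing the data. Line numbers only name lines: with a replicate block that paired the lines of the 2 families by number, the difference was 0.128 points (exact sign-flip test, p = 0.0313), and same-numbered lines correlated at −0.0113 to 0.00983, with 1 of 7 closest to its own number.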

Other observations

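Among the chromosomes left out of the comparisons, 96 of 6193 regions on chromosome 12 (1.55%), 56 of 4625 on chromosome 18 (1.21%), 59 of 5175 on chromosome 19 (1.14%) and 51 of 2962 on chromosome X (1.72%) moved in at least 1 MEF-2 line. Per line, 0.304% ± 0.153 (SD, n = 7) of regions moved on chromosome X and 0.202% ± 0.116 (SD, n = 7) on chromosome 19, means that differed by less than either SD. Counted once for each line in which a region moved, chromosome X had 15 gains and 48 losses. MEF-2 is female, and levels on chromosome X were not split by copy. None of these shares was tested against the other chromosomes, and their CpGs were chosen on the 8 MEF-2 libraries alone.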
